A study of Mus musculus with 12 samples.

Results

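Mitochondrial chaperones and proteases are the 10 genes Hspd1, Hspe1, Hspa9, Trap1, Lonp1, Clpp, Clpx, Yme1l1, Afg3l2 and Oma1, chosen by name from the 34866 genes of a table of mRNA levels. No cut on measured values was applied, but earlier results of these data were known when the genes were chosen, so the list was not a blind pick. All 10 were in the table under 1 identifier each. Levels are in TPM, a unit that is corrected for transcript length and adds up to the same total in every library. The cells were mouse embryonic fibroblasts (MEFs) taken from embryos 13 days old, grown as male or female cells and immortalized with a plasmid carrying SV40 T-antigen. The WT cells came from 129S1/SvImJ mice and the KO cells from a Sirt3 knockout stock (Sirt3-/-). Sirt3 is a deacetylase of the mitochondrial matrix. The 4 groups, WT and KO cells of each sex, had 3 libraries each, all from passage 6 cells harvested 48 h after seeding, with no treatment in any group. Wells were seeded in triplicate and the number of independent lines per group is not stated. WT and KO cells came from separate stocks, so stock cannot be told apart from genotype, whatever the number of lines. Where a group is a single line, the line cannot be told apart from its genotype and sex, and the p-values measure only the spread between wells.

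Most mitochondrial proteins are made in the cytosol, imported unfolded and folded inside the organelle. In the matrix, Hspa9 pulls in and holds incoming chains, the chaperonin made of Hspd1 and Hspe1 folds them in a closed chamber, and Trap1 is the Hsp90 family member of the organelle. Lonp1 and the Clpp protease, fed by its unfoldase Clpx, degrade damaged matrix proteins, while Yme1l1, Afg3l2 and Oma1 cut proteins at the inner membrane. The genes of this machinery are known as targets of the mitochondrial unfolded protein response, a programme that mammalian cells run through Atf4, Atf5 and Ddit3 (Chop).

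Hspd1 (ENSMUSG00000025980.14) spans 55077835 to 55088243 of chromosome 1 of GRCm38 on the minus strand and Hspe1 (ENSMUSG00000073676.4) spans 55088132 to 55091307 on the plus strand, so that the partners of the chaperonin are divergently transcribed neighbours whose annotated spans share 112 bp. RefSeq places an Hspd1 start at 55087932 and the Hspe1 start at 55088148, which is 216 bp away. Between these starts lies a row of 4 alternating TTC and GAA units, the letters that heat shock factor recognises. It is shown here because both genes fell in male KO MEFs, as given with the values. The stretch is chr1:55088053-55088082 of GRCm38.p6, plus strand, read 5′ to 3′ from the RefSeq promoter windows, with the 18 bases of the row in capitals.
Hspe1 and Hspd1: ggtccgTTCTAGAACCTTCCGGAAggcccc
The row begins 89 bases before the Hspe1 start and 144 bases before that Hspd1 start, and it also lies within the annotated span of Hspd1. RefSeq also places an Hspd1 start at 55088243. The promoter window of that start does not hold the row, which lies after it in the direction of Hspd1. The pattern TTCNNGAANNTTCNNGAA, which reads the same on both strands, was searched for after the sequences had been seen. It was present in 5 of 32851 promoter windows (0.0152%), each from 250 bases before a start to 50 bases after it, namely those of Arpc2, Chordc1, Fam149a, Hspd1 and Hspe1. The 2 windows of Hspd1 and Hspe1 that hold it share 285 bases. They had been seen before the pattern was written, so their matches were fixed in advance. A row of 4 units that begins with GAA was not searched for, so the share covers only rows that begin with TTC. A single pair of units was common by comparison, with GAANNTTC in 7.86% and TTCNNGAA in 8.52% of all windows, and the longer pattern contains both.

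Lonp1 (ENSMUSG00000041168.9, chromosome 17, 56614297 to 56626887, minus strand) differed most clearly between KO and WT MEFs, so the 100 bases before its RefSeq start are given, chr17:56626904-56627003 of GRCm38.p6 on the minus strand, 5′ to 3′. Capitals mark TGACGT, the core of a cAMP response element.
Lonp1: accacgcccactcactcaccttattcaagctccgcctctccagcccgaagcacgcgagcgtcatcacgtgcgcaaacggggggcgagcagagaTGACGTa
TGACGT was also searched for only after the sequences had been seen. It was found on either strand in 7.51% of all windows, and among the members also in the window of Trap1. Lonp1 had 1 match, while Trap1 had 2 that overlap, beginning 47 and 45 bases before its start. Trap1 did not pass between KO and WT in either sex (log2 fold change 0.0053 in males and 0.031 in females). TGATGNAA, the composite site of C/EBP and ATF factors, was in 3.97% of all windows and in 0 of the 9 windows of the 8 members that had one. A single TTCNNGAA was found in the Clpp window. These are matches of letters only.

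The knocked-out gene and the markers were read before the members. In males Sirt3 was at 6.59, 7.17 and 9.07 TPM in libraries labelled WT and 8.88, 10.9 and 11.0 TPM in those labelled KO. In females the values were 7.40, 7.60 and 8.69 TPM under the WT label and 7.57, 9.06 and 8.19 TPM under the KO label. Sirt3 mRNA was thus no lower under either KO label (limma adjusted p = 0.0981 in males and 0.772 in females). TPM summed over a gene cannot tell an intact from a disrupted message, so KO below means a library labelled KO. Of 10 fibroblast markers, 9 were at 1 TPM or more in every group, the exception being Lum with group means from 0.096 to 0.375 TPM. Among the leukocyte genes Adgre1 was listed at 0 throughout, while Cd68 had group means from 5.66 TPM (male WT) to 7.72 TPM (female WT). Summed over Epcam, Cdh1, Krt8, Krt18 and Krt19, the epithelial markers stood at 76.0 to 77.8 TPM in the male WT, 7.90 to 8.78 in the male KO, 19.7 to 22.7 in the female WT and 7.40 to 10.2 in the female KO libraries, mostly as Krt19. Fibroblast markers summed to 10245 to 11360 TPM in the male WT and 12377 to 13082 in the male KO libraries, and to 8187 to 8333 in the female WT and 10402 to 10658 in the female KO libraries. Muscle markers went from 9.21 to 11.2 TPM in the male WT to 5.10 to 5.47 in the male KO libraries and from 12.6 to 15.7 in the female WT to 7.79 to 9.67 in the female KO libraries. Endothelial markers were at 1.80 to 2.11 TPM in the male WT, 1.40 to 1.63 in the male KO, 4.72 to 5.76 in the female WT and 1.87 to 2.25 in the female KO libraries. In both sexes, then, fibroblast sums were higher and epithelial, muscle and endothelial sums lower under the KO label without overlap. Single markers differed, however. Mean Acta1 went from 10.3 to 5.07 TPM in males but from 8.20 to 8.73 in females, where the muscle sum fell through Des (6.26 to 0.128). The endothelial sum was mostly Kdr. In males S100a4 (1129 to 960 TPM) and Col1a2 (1303 to 1284) were lower in KO, while the other fibroblast means were higher. The part of these shifts in the results on the members was not tested. Leukocyte and neural markers added up to at most 10.3 and 18.0 TPM, mostly as Cd68 and Tubb3. Y-linked Ddx3y, Eif2s3y and Kdm5d summed to 84.5 to 97.8 TPM in libraries labelled male and 0.298 to 0.900 in those labelled female.

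Hspd1, Hspe1 and Hspa9 were the most abundant members in each group, while the chaperone Trap1 stood among the proteases. The leading 3 were each between 477 and 625 TPM in every library, Lonp1 between 117 and 148, Clpp and Trap1 between 73.8 and 93.6, Afg3l2 and Yme1l1 between 45.8 and 58.5, Clpx between 19.4 and 27.7, and Oma1 between 5.20 and 11.8. Hspe1 led in male WT MEFs at 609 ± 24.3 TPM (SD, n = 3), although its libraries overlapped those of Hspd1 at 585 ± 5.51. In male KO MEFs the order of the first 3 genes was Hspa9, Hspd1 and Hspe1, each overlapping the next. In both female groups Hspd1 led, at 587 ± 8.66 TPM in WT and 579 ± 8.38 in KO, clear of the next gene. Lonp1 came next in every group, clear of its neighbours in the order. Lower down, libraries of Clpp and Trap1 overlapped in both male groups, as did those of Afg3l2 and Yme1l1 in male KO.

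**Figure D1:**
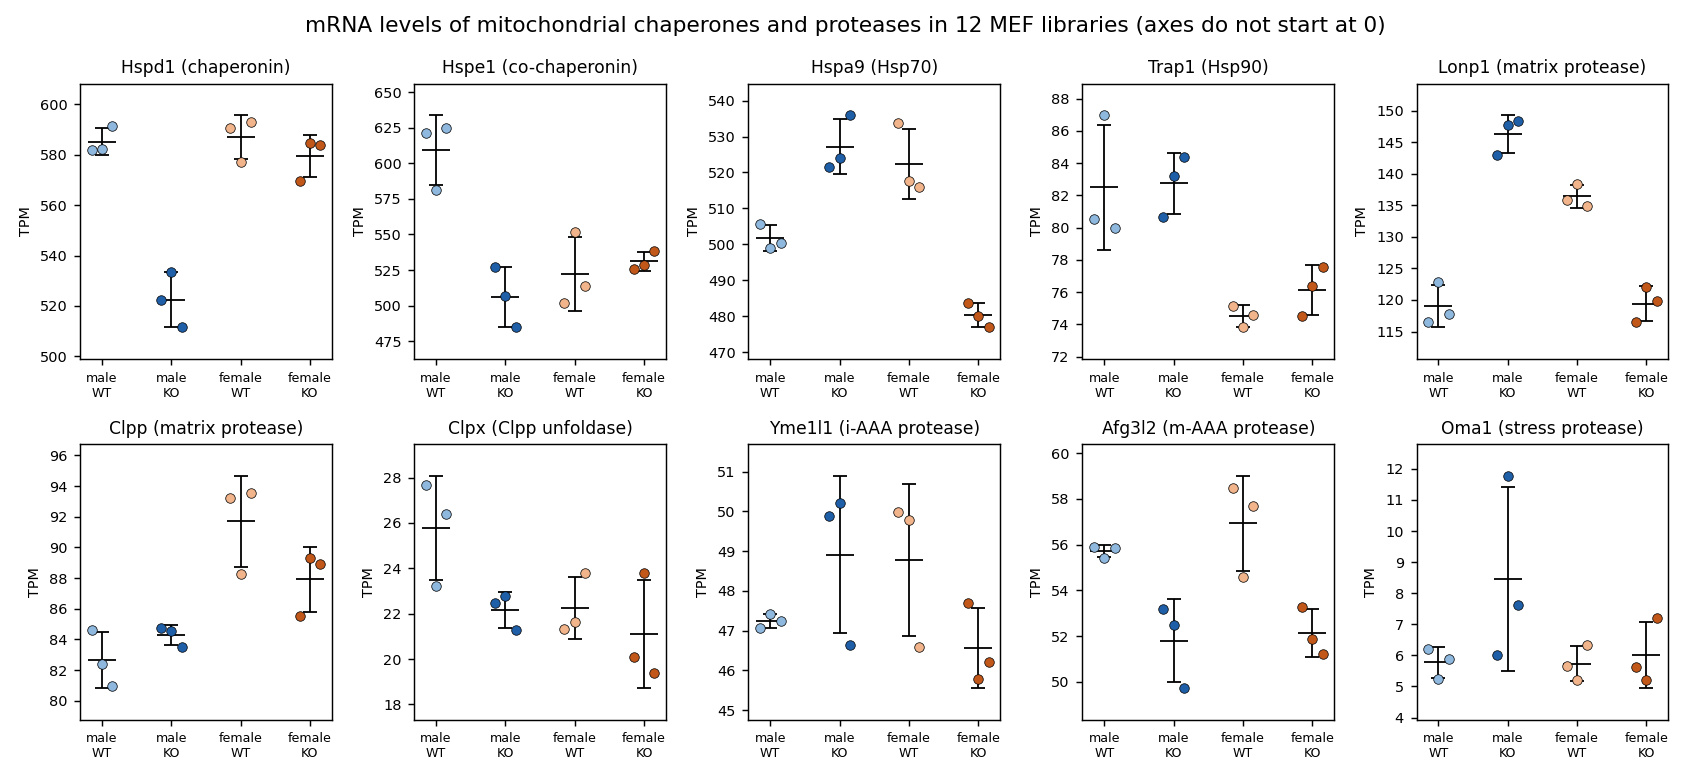
Level of each of the 10 genes in TPM (vertical axes, each panel on its own scale that does not start at 0) in the 3 libraries of each group, with the group mean and SD as bars. The 3 male KO libraries of Lonp1, at 143 to 148 TPM, stand above all others and the 3 male KO libraries of Hspd1, at 512 to 533 TPM, below all others.

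The main question was whether KO and WT cells differ in these genes in the same way in males and females. Within males, limma on log2(TPM+1) with Benjamini-Hochberg adjustment over the 12504 genes averaging 1 TPM or more (all 10 members passed this filter) called 3 of 10 members at an adjusted p under 0.05, against 21.6% of all tested genes. Lonp1 was higher in male KO MEFs, and both parts of the chaperonin, Hspd1 and Hspe1, were lower. By direction, 1 member was called higher, where 10.7% of all genes were, and 2 lower, where 10.9% were. The KO and WT ranges did not overlap for 6 of 10 members, against 40.0% of all genes. The median log2 fold change of the 10 members was 0.017, beside -0.015 over all tested genes. The residual SD on the log2 scale ranged from 0.016 (Hspa9) to 0.096 (Clpx) for 9 members and was 0.32 for Oma1, beside a median of 0.12 over all genes.

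Hspd1 (Hsp60), the chaperonin ring, measured 582, 582 and 592 TPM in male WT and 522, 533 and 512 TPM in male KO MEFs. All 3 KO libraries lay below all 3 WT libraries. The log2 fold change of Hspd1 was -0.16 (SE 0.029, 95% interval -0.23 to -0.094, adjusted p = 0.00885 by limma). Without a mean-variance trend in the fit, the adjusted p of limma was 0.0706.

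Hspe1 (Hsp10), the lid of the chaperonin, stood at 622, 581 and 625 TPM in male WT and at 527, 507 and 485 TPM in male KO MEFs. The groups did not overlap, although WT replicate 2 lay closest to the KO libraries. Its log2 fold change was -0.27 (SE 0.045, 95% interval -0.37 to -0.16, adjusted p = 0.00659 by limma). The ratio of Hspe1 to Hspd1 within a library, which does not depend on library scaling, ran from 0.998 to 1.07 in male WT and from 0.948 to 1.01 in male KO MEFs. These ranges overlapped, and the log2 ratio differed by -0.10 (SE 0.042, exact two-sided permutation test p = 0.2, n = 3 per group, where the smallest possible p is 0.1).

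Lonp1, the ATP-dependent Lon protease of the matrix, was at 117, 123 and 118 TPM in male WT and at 143, 148 and 148 TPM in male KO MEFs. Every KO library was above every WT library. The log2 fold change of Lonp1 was 0.30 (SE 0.040, 95% interval 0.20 to 0.39, adjusted p = 0.00260 by limma). Relative to Clpp, the other matrix protease, Lonp1 rose from 1.38 to 1.49 in male WT libraries to 1.69 to 1.78 in male KO libraries. That log2 ratio differed by 0.27 (SE 0.040), with no overlap and the smallest exact permutation p that 3 against 3 libraries can give, 0.1.

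Hspa9 (mortalin, ENSMUSG00000024359.8 on chromosome 18), the Hsp70 of the matrix, gave 506, 499 and 500.4 TPM in male WT and 522, 524 and 536 TPM in male KO MEFs. The ranges were apart, with KO higher, but the log2 fold change of 0.071 (95% interval 0.0053 to 0.14) had an adjusted p of 0.119 by limma. With all 12 libraries in 1 fit it was 0.0459. Trap1 (ENSMUSG00000005981.11, chromosome 16, 4039971 to 4077827) stood at 80.6, 87.0 and 80.0 TPM in male WT and at 80.7, 83.2 and 84.4 TPM in male KO MEFs, which overlapped. Its log2 fold change was 0.0053 with a 95% interval from -0.11 to 0.12, which bounds any difference of Trap1 between the male groups at this precision.

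None of the other proteolytic genes passed the test in males. Clpp (ENSMUSG00000002660.7, chromosome 17, 56990305 to 56996188), the peptidase chamber, had a log2 fold change of 0.028 (adjusted p = 0.675 by limma). Clpx (ENSMUSG00000015357.10, chromosome 9, 65294260 to 65330658), which unfolds substrates for Clpp, gave 27.7, 23.2 and 26.4 TPM in male WT and 22.5, 22.8 and 21.3 TPM in male KO MEFs. All KO values of Clpx were below the WT values, with a log2 fold change of -0.20 (95% interval -0.40 to -0.011, adjusted p = 0.126 by limma). The ratio of Clpx to Clpp was 0.327, 0.282 and 0.326 in male WT and 0.265, 0.269 and 0.255 in male KO libraries. It did not overlap between the groups, and the log2 ratio differed by -0.24 (SE 0.075) at an exact permutation p of 0.1, again the smallest possible.

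At the inner membrane, Yme1l1 (ENSMUSG00000026775.9, chromosome 2, 23156369 to 23199260), the i-AAA protease that faces the intermembrane space, had a male log2 fold change of 0.048 (adjusted p = 0.551 by limma). Afg3l2 (ENSMUSG00000024527.9, chromosome 18), a subunit of the m-AAA protease that faces the matrix, was at 55.9, 55.4 and 55.9 TPM in male WT and 53.2, 52.5 and 49.7 TPM in male KO MEFs. The groups of Afg3l2 did not overlap, with a log2 fold change of -0.10 and an adjusted p of 0.174 by limma. Oma1 (ENSMUSG00000035069.3, chromosome 4, 103313812 to 103371868), the stress-activated protease that cuts Opa1 and Dele1, gave 6.20, 5.24 and 5.87 TPM in male WT and 6.02, 11.8 and 7.61 TPM in male KO MEFs. Replicate 2 of male KO decided its value. The log2 fold change of Oma1 was 0.44 with that library and 0.20 without it, and neither passed (adjusted p = 0.200 with it, by limma).

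Between female KO and female WT MEFs, 2 of 10 members were called by limma, Lonp1 and Hspa9, and both were lower in KO. The background was 11.5% of all tested genes, of which 5.63% were higher and 5.84% lower. The ranges were apart for 3 of 10 members, all lower in KO, against 33.6% of all genes. The median log2 fold change of the members was -0.063, beside -0.023 over all genes.

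Lonp1 measured 136, 138 and 135 TPM in female WT and 117, 122 and 120 TPM in female KO MEFs. All KO libraries were below all WT libraries, which is the reverse of the order in males. The log2 fold change of Lonp1 in females was -0.19 (SE 0.033, 95% interval -0.27 to -0.11, adjusted p = 0.0149 by limma). Settings that lost the call included leaving out female WT replicate 1 (adjusted p = 0.0506 by limma), leaving out female WT replicate 2 (0.0525) and fitting no mean-variance trend (0.0561). The ratio of Lonp1 to Clpp was 1.46, 1.57 and 1.44 in female WT and 1.36, 1.37 and 1.35 in female KO libraries. These did not overlap either, with a log2 difference of -0.13 (SE 0.038) at the smallest exact permutation p, 0.1.

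Hspa9 stood at 534, 518 and 516 TPM in female WT and at 484, 480.0 and 477 TPM in female KO MEFs. The groups were apart, and the log2 fold change of Hspa9 was -0.12 (SE 0.025, 95% interval -0.18 to -0.062, adjusted p = 0.0259 by limma). Leaving out any 1 of the 6 female libraries lost this call, with adjusted p from 0.0569 (without female WT replicate 2) to 0.0809 (without female KO replicate 3) by limma. Other settings that lost it included median-of-ratios scaling (0.0738) and no trend (0.145).

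Neither part of the chaperonin passed in females. Hspd1 gave 591, 577 and 593 TPM in female WT and 569.7, 585 and 584 TPM in female KO MEFs, and the log2 fold change was -0.019 (95% interval -0.077 to 0.040, adjusted p = 0.678 by limma). Hspe1 gave 502, 552 and 514 TPM in WT and 526, 529 and 538 TPM in KO, with a log2 fold change of 0.025 (95% interval -0.067 to 0.12, adjusted p = 0.731 by limma). Both pairs of groups overlapped, and so did the ratio of Hspe1 to Hspd1 (0.849 to 0.956 in female WT and 0.905 to 0.923 in female KO libraries, log2 difference 0.044, exact permutation p = 0.4). Afg3l2 was the third member with separate ranges, at 58.5, 54.6 and 57.7 TPM in female WT and 53.3, 51.9 and 51.2 TPM in female KO MEFs, where its log2 fold change was -0.12 (adjusted p = 0.132 by limma). The remaining members, Trap1, Clpp, Clpx, Yme1l1 and Oma1, had log2 fold changes from -0.077 (Clpx) to 0.051 (Oma1) in females, overlapped between the groups and did not pass.

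**Figure D2:**
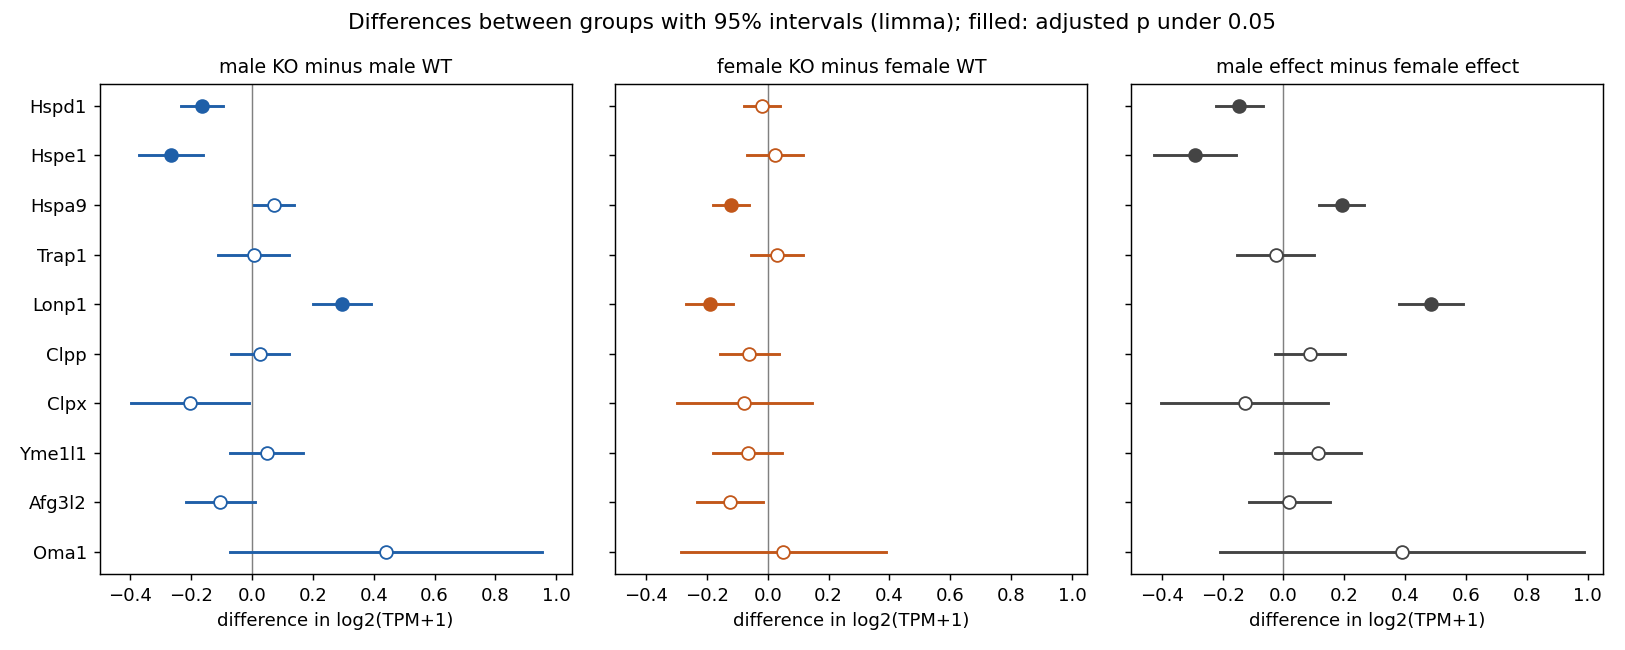
Differences in log2(TPM+1) (horizontal axes) for the 10 genes between KO and WT in males (left) and females (middle), and the male difference minus the female difference (right). Points are limma estimates, lines 95% intervals and filled points adjusted p under 0.05; Lonp1 stands at 0.30 in males, -0.19 in females and 0.49 in the difference.

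Whether the effect of the KO label differed between the sexes was tested directly as a sex by genotype interaction in the same limma model over all 12 libraries, taking the male effect minus the female effect. This test shares its libraries with the comparisons within each sex. It called 4 of 10 members, Lonp1 and Hspa9 with a positive and Hspd1 and Hspe1 with a negative difference, against 13.0% of all tested genes (6.70% positive and 6.33% negative). The median difference was 0.054 over the members and 0.0047 over all genes.

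The effect on Lonp1 differed by 0.49 on the log2 scale (SE 0.048, 95% interval 0.38 to 0.59, adjusted p = 4.16e-05 by limma), since KO libraries were above WT in males and below WT in females. For Hspa9 the difference was 0.19 (SE 0.034, 95% interval 0.12 to 0.27, adjusted p = 0.00262 by limma). The chaperonin genes gave -0.29 for Hspe1 (SE 0.061, 95% interval -0.43 to -0.16, adjusted p = 0.00821) and -0.14 for Hspd1 (SE 0.035, 95% interval -0.22 to -0.067, adjusted p = 0.0186), both by limma. The Hspd1 difference missed the threshold with quantile normalization (adjusted p = 0.0803) and with no mean-variance trend (0.117). Among the other members the differences ran from -0.13 (Clpx, 95% interval -0.40 to 0.15) to 0.39 (Oma1, 95% interval -0.21 to 0.99), and the adjusted p by limma ran from 0.313 to 0.890.

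The groups were ordered as follows in the 4 called genes. Hspd1 was low in male KO alone, with the other groups overlapping one another in order. Hspe1 was high in male WT, clear of the other 3 groups, whose neighbours overlapped. Hspa9 was highest in male KO and female WT, which overlapped, lower in male WT and lowest in female KO, these last steps being free of overlap. Lonp1 was highest in male KO, next in female WT, and lowest in female KO and male WT, which overlapped at 119 ± 2.77 and 119 ± 3.35 TPM (SD, n = 3 each).

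The same libraries allow the sexes to be compared within each genotype. Between male and female WT MEFs limma called 2 of 10 members, against 12.8% of all genes (6.26% higher and 6.56% lower in males), and ranges were apart for 5 of 10 members, against 33.4%. Hspe1 was higher in male WT (log2 fold change 0.22, SE 0.047, adjusted p = 0.0239 by limma) and Lonp1 was lower (-0.20, SE 0.036, adjusted p = 0.0144 by limma). Both calls were lost without male WT replicate 3 (adjusted p = 0.0837 and 0.0560 by limma) and without female WT replicate 1 (0.0795 and 0.0503). That of Hspe1 was also lost without male WT replicate 1 (0.0784) and female WT replicate 3 (0.0877) and with no filter on low values (0.0851), and that of Lonp1 without female WT replicate 2 (0.0542). With no mean-variance trend limma called 0 of the 10 members at this contrast, while 4 had an unadjusted p under 0.05. Trap1 was at 80.0 to 87.0 TPM in male WT and 73.8 to 75.2 TPM in female WT libraries, without overlap, and had an adjusted p of 0.0900 by limma. It passed under 3 alternatives, median-of-ratios scaling (0.0376), quantile normalization (0.0432) and all 12 libraries in 1 fit (0.0344). Clpp was the opposite, at 81.0 to 84.6 TPM in male WT and 88.3 to 93.6 TPM in female WT libraries, also without overlap (adjusted p = 0.0649 by limma).

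Between male and female KO MEFs limma called 3 of 10 members, against 16.6% of all genes (8.17% higher and 8.39% lower in males), and ranges were apart for 5 of 10 members, against 35.4%. Lonp1 was higher in male KO by 0.29 on the log2 scale (SE 0.037, adjusted p = 0.00237 by limma), and this call held under each of 14 alternatives tried. Hspa9 was higher by 0.13 (SE 0.026, adjusted p = 0.0142 by limma) and Hspd1 lower, at -0.15 (SE 0.029, adjusted p = 0.0137 by limma). Both of these were lost without male KO replicate 3, female KO replicate 2 or female KO replicate 3, with adjusted p by limma from 0.0511 to 0.0574 for Hspa9 and from 0.0532 to 0.0553 for Hspd1. They were lost with no mean-variance trend too, at adjusted p of 0.118 for Hspa9 and 0.102 for Hspd1 by limma. Trap1 was again higher in male libraries without overlap, at 80.7 to 84.4 TPM against 74.5 to 77.6 TPM, and did not pass (adjusted p = 0.102 by limma).

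Summed over the 4 chaperones (Hspd1, Hspe1, Hspa9 and Trap1), the level was 1750 to 1797 TPM in male WT, 1617 to 1652 in male KO, 1697 to 1720 in female WT and 1654 to 1677 in female KO libraries. The chaperone sum was thus lower in male KO than in male WT libraries, without overlap. The fall came from Hspd1 and Hspe1 and was not shared by the other chaperones. Hspa9 was higher in male KO (522 to 536 TPM) than in male WT libraries (499 to 506 TPM), and Trap1 overlapped. With TPM scaled by median-of-ratios factors, chosen after the data were seen, the male ranges were still apart (1718 to 1815 TPM in WT and 1617 to 1706 in KO). The female chaperone ranges were apart as deposited but overlapped after this scaling, at 1674 to 1698 TPM in WT and 1658 to 1687 in KO. They also overlapped when Hspa9 was left out, at 1168 to 1202 TPM in WT and 1170.1 to 1199.8 in KO. The 6 proteases and partners added up to 334 to 338 TPM in male WT, 357 to 369 in male KO, 358 to 365 in female WT and 329 to 338 in female KO libraries. Without Lonp1 the protease sums were 214 to 221, 209 to 222, 219 to 229 and 212 to 216 TPM in the same order, so that without Lonp1 the KO and WT ranges overlapped in males. Those of females were apart as deposited and overlapped after the same scaling, at 217 to 225 TPM in WT and 212 to 218 in KO.

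**Figure D3:**
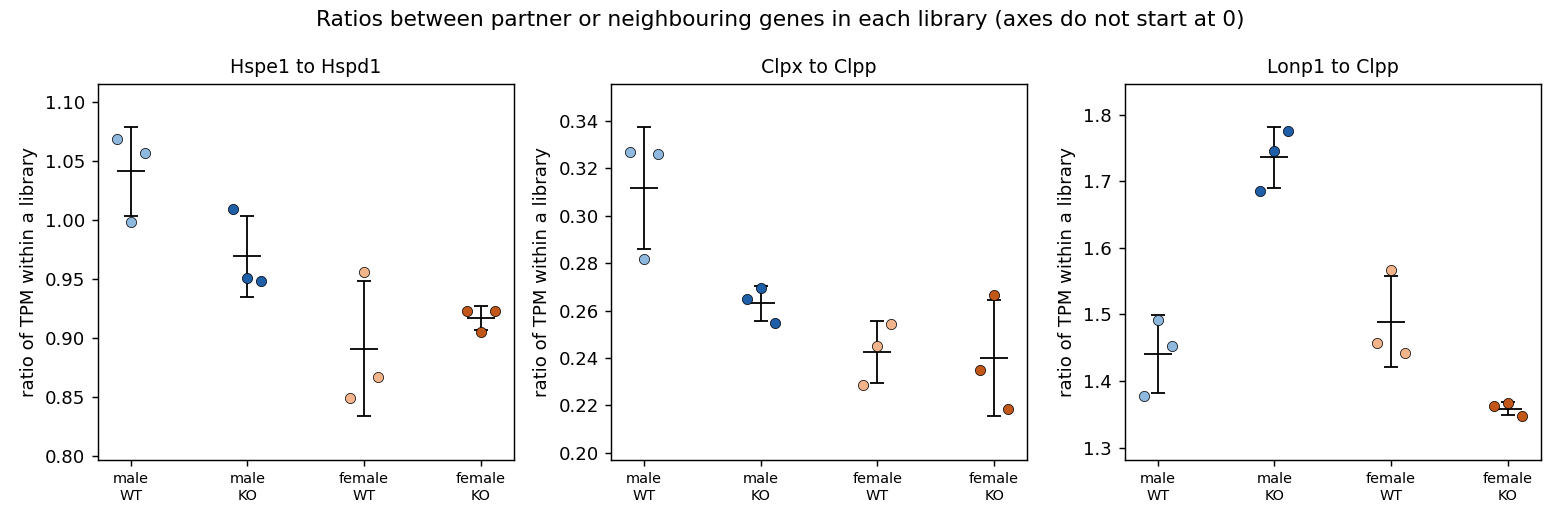
Ratio of the TPM of 2 genes within a library (vertical axes, which do not start at 0) for Hspe1 to Hspd1, Clpx to Clpp and Lonp1 to Clpp, as 3 libraries per group with mean and SD. The ratio of Lonp1 to Clpp is 1.69 to 1.78 in male KO, above male WT, and 1.35 to 1.37 in female KO, below female WT.

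Other genes of mitochondrial protein quality control were read from the same tests as whole lists, and all of them passed the filter. These lists too were drawn up with earlier results of these data known. Of 12 cofactors of the chaperones and inner membrane proteases, limma called 0 higher and 2 lower in male KO MEFs and 0 higher and 2 lower in female KO MEFs. The background shares were those already given, 21.6% and 11.5%, and at an unadjusted p under 0.05 there were 6 and 2 of 12, beside 35.1% and 27.2% of all genes. The cofactor medians were -0.14 in males and -0.047 in females. Stoml2, which organises inner membrane proteases in cardiolipin-rich domains, was lower in both sexes. It stood at 214, 201 and 207 TPM in male WT against 162, 167 and 149 TPM in male KO libraries, and at 197, 200.2 and 209 TPM in female WT against 166, 183 and 152 TPM in female KO libraries. No KO library reached a WT library of its sex. Its log2 fold change was -0.38 in males (adjusted p = 0.00281 by limma) and -0.28 in females (adjusted p = 0.0453 by limma). Phb2, a prohibitin that forms the ring scaffold around the m-AAA protease, was lower in males (-0.26, adjusted p = 0.00149 by limma) and was at -0.038 in females (adjusted p = 0.558), a difference of -0.23 that passed (adjusted p = 0.00874 by limma). Its partner Phb also passed for the difference, at -0.21 (adjusted p = 0.0491 by limma), with -0.12 in males and 0.083 in females, neither of which passed. Atad3a, an inner membrane ATPase, was lower in females (-0.24, adjusted p = 0.0109 by limma). In males it was also below WT without overlap, at -0.17, but did not pass (adjusted p = 0.0746 by limma). The male minus female difference of Atad3a was 0.077 (adjusted p = 0.543 by limma).

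Among 13 further mitochondrial proteases and peptidases, 1 was called higher and 3 lower in male KO MEFs, and 1 higher and 1 lower in female KO MEFs. Of all tested genes, 10.7% were higher and 10.9% lower in males and 5.63% higher and 5.84% lower in females. The protease medians were -0.015 in males and -0.027 in females. Pitrm1, which degrades cleaved presequences, was lower in both sexes. Its level was 146, 151 and 150.2 TPM in male WT against 122, 122 and 118 in male KO libraries, and 177, 172 and 167 in female WT against 134, 131 and 145 in female KO libraries. The log2 fold change of Pitrm1 was -0.31 in males (adjusted p = 0.00154 by limma) and -0.33 in females (adjusted p = 0.00663 by limma). Both subunits of the matrix processing peptidase, Pmpca and Pmpcb, were lower in males, by -0.23 (adjusted p = 0.0434 by limma) and -0.21 (adjusted p = 0.0449 by limma). In females Pmpca was at -0.12 (adjusted p = 0.0701 by limma) and Pmpcb at 0.088 (adjusted p = 0.352), and for Pmpcb the difference between the sexes passed (-0.29, adjusted p = 0.0339 by limma). Pmpca was also below WT without overlap in females, and its male minus female difference of -0.11 did not pass (adjusted p = 0.417 by limma). Lactb, a filament-forming protease of the intermembrane space, had the sign pattern of Lonp1, with 0.39 in males (adjusted p = 0.0241 by limma), -0.20 in females, which did not pass, and a difference of 0.59 (adjusted p = 0.00503 by limma). Htra2 (Omi), a serine protease of the intermembrane space, was higher in females (0.23, adjusted p = 0.0200 by limma). In males Htra2 overlapped, at 0.032 (adjusted p = 0.788 by limma), and the difference of -0.20 did not pass (adjusted p = 0.169 by limma).

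Of 10 known substrates of the members, 1 was called higher and 1 lower in males, close to the 21.6% of all genes called there. These were Smdt1 (Emre), the regulator of the calcium uniporter that m-AAA proteases degrade when unassembled (0.21, adjusted p = 0.00986 by limma), and Timm17a, an import channel subunit degraded by Yme1l1 (-0.16, adjusted p = 0.0267 by limma). In females limma called 0 of the 10 substrates, while 1 had an unadjusted p under 0.05, beside 27.2% of all genes. That 1 was Timm17a, which was also lower in female KO without overlap (-0.19, adjusted p = 0.0880 by limma). Its male minus female difference was 0.024 (adjusted p = 0.890 by limma). Smdt1 was at 0.080 in females (adjusted p = 0.384 by limma). The interaction called 0 of the 10 substrates, and 1 had an unadjusted p under 0.05, beside 25.2% of all genes. The substrate medians were 0.0066 in males and -0.034 in females.

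**Figure D4:**
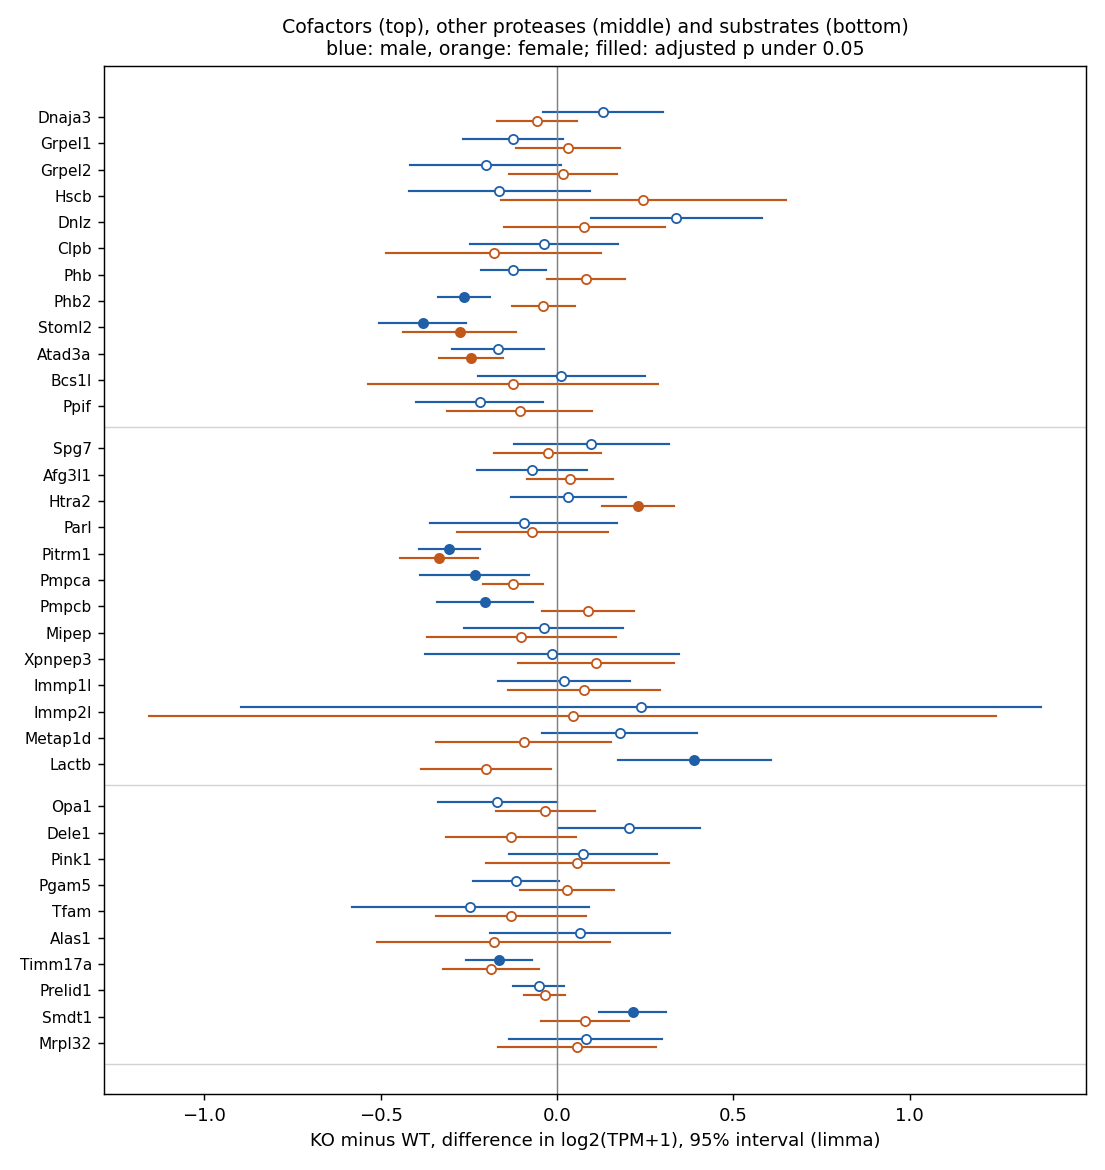
KO minus WT difference in log2(TPM+1) with its 95% interval (horizontal axis) for 12 cofactors, 13 other proteases and 10 substrates, in males (blue) and females (orange), filled where the adjusted p was under 0.05. Stoml2 and Pitrm1 are filled on the lower side in both sexes, and most other genes are open.

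The list of regulators held 6 genes and was drawn up with earlier results of these data known. In male KO MEFs limma called 4 higher (Atf4, Atf5, Ddit3 and Cebpb), where 10.7% of all tested genes were called higher. In female KO MEFs it called 1 lower (Atf4), where 5.84% of all tested genes were. Cebpb, a partner of Ddit3 in the mitochondrial stress response, stood at 113, 120 and 119 TPM in male WT and 233, 215 and 234 in male KO libraries, a log2 fold change of 0.95 (adjusted p = 3.15e-05 by limma). In females Cebpb was at 141, 157 and 132 TPM in WT and 145, 137 and 150 in KO libraries, which overlapped (0.0092, adjusted p = 0.950 by limma). Hsf1, the heat shock factor, overlapped between KO and WT in both sexes, with a log2 fold change of -0.010 in males (adjusted p = 0.923 by limma) and -0.039 in females (adjusted p = 0.672 by limma).

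The genes most like a member were ranked by Pearson correlation of log2(TPM+1) over the 12 libraries among 8615 genes averaging 10 TPM or more, as a description in which the points share 4 groups. Most like Lonp1 were Adpgk (r = 0.97), Cthrc1 (0.96), Hoxa10 (0.96), Phf10 (0.96) and Emb (0.95). Each of these was highest in male KO, next in female WT, and lower in the other groups, for example Cthrc1 with 16.2, 54.8, 44.8 and 19.8 TPM as means of male WT, male KO and then the WT and KO groups of females. Of the members, Hspa9 came nearest to Lonp1 (r = 0.83, rank 96). Most like Hspd1 was Dnaja1 (r = 0.97), a cytosolic Hsp40, followed by Adam19, Tspan7, Irf2bp2 and Pa2g4 (each 0.96). Hspe1, the gene next door to Hspd1, reached only r = 0.49 and rank 2173 by this measure. Most like Hspe1 were Lgr6 (0.93), H2-T22 (0.92), Ifi27l2a, Oas1a and Crabp2 (each 0.91).

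Some levels could share reads with other genes. The table lists 12 pseudogenes of Hspd1, Hspe1 and Hspa9, of which 8 were at 0 in every library and the highest value of any in a library was 2.26 TPM. Adding the copies of Hspd1 and Hspe1 to their parents changed no call. Reads in the 112 bp shared by Hspd1 and Hspe1 cannot be told apart without strand, and whether the libraries kept strand is not stated in the sources used here. Trap1 overlaps Dnase1 on the other strand, which stood at 3.83 TPM or less.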

How the data were processed

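RNA was poly(A)-selected and sequenced paired-end by a service provider. The authors quantified reads with Salmon (version 1.10.1 in the submitters' processing notes) against GRCm38 and deposited TPM for 34866 genes in 12 libraries, with no column left unused here. Since the values hold no totals of reads, depth is unknown and no counting interval is given. Between 12256 and 12637 genes reached 1 TPM in a library, the 10 most expressed genes held 5.82% to 7.33% of the TPM, and no 2 replicates were alike beyond the others. Symbols and positions came from GENCODE release M21 (99.2% of identifiers matched without version), and promoter windows from RefSeq on GRCm38.p6.

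Since TPM are not counts, limma 3.58.1 in R 4.3.3 was fitted to log2(TPM+1), allowing the variance to follow the mean, over the 12504 genes averaging 1 TPM or more, with Benjamini-Hochberg adjustment over all of them and no fold threshold. Fits of 2 groups used their 6 libraries and the interaction all 12. Log2 fold changes are on this scale, and a pseudocount of 1 understates the change of low genes such as Oma1. Ratios within a library were compared with exact two-sided permutation tests in scipy 1.17.1. The code was tested on simulated data. All 10 members are named, and of the cofactors, other proteases and substrates those called in any KO comparison or the interaction; the likeness rule took the 5 highest correlations for Lonp1, Hspd1 and Hspe1. Cebpb and Hsf1 were named from the regulators after their values were seen. The members and lists were chosen with earlier results of these data known. Alternatives were a pseudocount of 0.1, no filter, a filter at a mean of 5 TPM, quantile normalization, median-of-ratios scaling, no mean-variance trend, all libraries in 1 fit, the replicate number as a block, members with their pseudogene copies added, and leaving out each library. Sums with Hspa9 left out or with median-of-ratios scaling were added after the data were seen.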

Additional observations from a re-analysis of the deposited data

Results flagged for a closer look

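For 4 genes the difference between KO and WT itself differed between male and female MEFs by the interaction test of limma with Benjamini-Hochberg adjustment. The male minus female difference on the log2 scale was 0.49 for Lonp1 and 0.19 for Hspa9, whose KO levels were above WT in 3 of 3 male libraries and below WT in 3 of 3 female libraries. It was -0.29 for Hspe1 and -0.14 for Hspd1, which were below WT in 3 of 3 male KO libraries and overlapped WT in females. Where a group is a single line, sex and line cannot be told apart in these differences. Groups of 3 libraries are too small to test a single library as an outlier.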

How the results depend on the processing

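Leaving out each library in turn gave 3 called members in males (3 to 3) and 4 in the interaction (4 to 4), but 0 to 1 in females, 0 to 2 between WT sexes and 1 to 3 between KO sexes. With limma, the female count of 2 was 1 with median-of-ratios scaling, 0 with no mean-variance trend and 0 with the replicate number as a block, where in both latter fits 3 members had an unadjusted p under 0.05. The count of 2 between WT sexes was 1 with no filter, 0 with no trend (4 unadjusted), 4 with all 12 libraries in 1 fit, 3 with median-of-ratios scaling, 3 with quantile normalization and 1 with the replicate block. The count of 3 between KO sexes was 1 with no trend and 1 with the block. Same-numbered libraries did not deviate together (r from -0.057 to 0.078), so the numbers were not taken as pairs; in males and in the interaction the block moved no count of called members. By limma it left adjusted p of 0.0541 for Lonp1 and 0.0734 for Hspa9 in females, 0.0794 for Hspe1 between WT sexes, and 0.0666 for Hspa9 and 0.0523 for Hspd1 between KO sexes. The log2 ratio of Clpx to Clpp in females changed sign with 1 library left out (-0.099 to 0.045, turning to 0.045 without female KO replicate 3 and 0.015 without female WT replicate 3). Of the values of single members under alternatives, 718 kept their side of the threshold, 37 lost it, 5 gained it and 0 of the called ones changed sign. The 718 include members that were not called and stayed so, whereas only called results could be lost. Called results differed in this, from Lonp1 in males, which passed under all 14 alternatives, to Hspa9 in females, which lost its call under 9 of 14. Causes of these changes were not tested. TPM carry no depth, so how far read counts limit Oma1 and Clpx is unknown.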
